A study of Mus musculus with 8 samples.

Results

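The genes of major histocompatibility complex (MHC) class II antigen presentation were examined in RNA sequencing of mouse lung. The group holds 9 genes of the 52636 gene identifiers counted. They were taken by symbol through a GRCm38 gene annotation. The genes are H2-Aa, H2-Ab1, H2-Eb1, Cd74, Ciita, H2-DMa, H2-DMb1, H2-Oa and H2-Ob. All 9 had enough reads to be tested, with at least 128 reads in every library.

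MHC class II molecules carry peptides from engulfed or membrane proteins to the cell surface, where CD4+ T cells read them. The alpha and beta chains assemble in the endoplasmic reticulum with the invariant chain, encoded by Cd74, which blocks the groove and guides the complex to endosomes. There cathepsins trim the invariant chain, H2-DM removes the last fragment so that peptide can bind, and H2-DO restrains H2-DM. Dendritic cells, B cells and macrophages express these genes at high levels, and in the lung alveolar type II cells express class II molecules as well. The class II transactivator, encoded by Ciita, switches the genes on together with factors bound to short promoter elements called the X box and the Y box.

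Lungs of 4 groups were compared, with 2 libraries in each group. All mice were wild type males of the strain C57BL/6. Control mice were given PBS (labelled PBS). For the COPD mice model, porcine pancreatic elastase (PPE) was instilled into the trachea at 10 weeks of age and lipopolysaccharide (LPS) followed from 12 weeks in 3 doses (labelled PPE_LPS), a procedure meant to resemble chronic obstructive pulmonary disease. From 8 weeks of age each was fed either the control diet (labelled NT) or a diet with 2% TJ-41, the herbal medicine Hochuekkito (labelled TJ41). The labels write this diet as TJ41 in the titles and as TJ4 in the treatment field. The study examined an acute phase at 14 weeks and a chronic phase at 17 weeks, and the sources used here do not give the age at which the sequenced lungs were collected. They also do not say whether the 2 libraries of a group came from separate mice, so the p-values measure the spread between libraries, which may be in part technical.

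The libraries held 18767295 to 20888042 counts. The surfactant gene Sftpc, the defining marker of alveolar type II cells, was abundant, at a mean of 14269 CPM (read counts per library size, after TMM scaling in edgeR). In the COPD mice model fed the control diet the 2 libraries were less alike than elsewhere. The SD over genes of their log2 difference was 0.798, against 0.394 to 0.469 in the other groups. Replicate 2 of that group also differed with the exon length of the gene. Its median deviation from the mean of all libraries, on the log2 scale, was 0.19 for the genes with the shortest exons and -0.15 for those with the longest, with all genes split into 3 equal classes. Fold changes of the 9 genes and medians of several lists are also given without each library of this group, for part of the comparisons. In whole lung, fewer cells of a type and less RNA per cell cannot be told apart.

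The promoters of the members were searched for the X box and the Y box. Promoter windows of 300 bases, 250 before and 50 after the start, were taken from RefSeq (GRCm38.p6) for the 6 members found there, as 7 windows. H2-Ab1, Cd74 and Ciita had no window. An X box was searched as CNNGNAAC and a Y box as GATTGG, on both strands, with 10 to 30 bases between them. These letters were chosen after the windows of the members had been read, so the shares are a description. The pair was found in 5 of the 7 windows, or 71.4%, and in 91 of all 32851 windows, or 0.277%. The X letters alone occurred in 39.1% of all windows and the Y letters alone in 16.1%. The pair was present for H2-Aa, H2-Eb1, H2-Oa, H2-Ob and H2-DMb1, and these letters in this arrangement were not in either window of H2-DMa. The stretches of 4 members are shown because they hold both elements at nearly the same spacing. The pair of H2-DMb1, with 27 bases between the elements, lies within the first exon that GENCODE annotates for that gene, and its stretch is not printed. The capitals mark the X letters and then the Y letters, written 5′ to 3′ on the strand of the gene.
H2-Aa (chr17:34287855-34287919, minus strand): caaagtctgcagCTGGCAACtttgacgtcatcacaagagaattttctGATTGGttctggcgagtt
H2-Eb1 (chr17:34305761-34305824, plus strand): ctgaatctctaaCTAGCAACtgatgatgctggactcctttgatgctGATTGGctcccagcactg
H2-Oa (chr17:34092288-34092352, plus strand): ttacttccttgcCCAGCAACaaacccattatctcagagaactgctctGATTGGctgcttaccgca
H2-Ob (chr17:34238803-34238864, plus strand): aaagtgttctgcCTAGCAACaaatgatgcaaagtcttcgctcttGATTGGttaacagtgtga
The elements were 27 bases apart in H2-Aa and H2-Oa, 26 in H2-Eb1 and 24 in H2-Ob. The Y letters began 44 to 60 bases before the RefSeq start in these 4 genes. The start that GENCODE annotates for H2-Oa (34092340) lies within its printed stretch. H2-Ob, which holds the pair like H2-Aa and H2-Eb1, did not follow them in level across the libraries, as described for the levels.

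All but 2 of the genes lie in the MHC on chromosome 17 of GRCm38. H2-Oa (34092340 to 34095234), H2-DMa (34119541 to 34139101), H2-DMb1 (34153072 to 34160230), H2-Ob (34238903 to 34254414), H2-Ab1 (34257689 to 34269419) and H2-Eb1 (34305867 to 34316674) are on the plus strand and H2-Aa (34282744 to 34287823) is on the minus strand. Ciita is on the plus strand of chromosome 16 (10480059 to 10528418) and Cd74 on the plus strand of chromosome 18 (60803848 to 60812652). Some reads could belong to neighbours or copies. Of the exon bases of H2-Oa, 22.8% overlap the antisense gene BC051537, and of those of H2-DMa, 10.4% overlap Brd2 on the other strand. H2-DMb1 shares 22.7% of its 50-base sequences with its close copy H2-DMb2. Whether strand was used and how reads with several matches were treated is not given in the sources used here, so the levels of these 3 genes are uncertain to that extent.

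Compared per kilobase of exon, the genes fell into steps. Cd74 was highest, at a mean of 766 CPM per kb and between 500.3 and 1365 in single libraries. The chain genes H2-Eb1 (212), H2-Aa (201) and H2-Ab1 (151) came next, and their ranges over the libraries overlapped. Such ranges do not give the order of genes within a library, here or for the lower genes, and the order also depended on the length used. H2-DMb1 (59.7) and H2-DMa (21.1) followed, each below the one before it in all libraries. H2-Ob (10.8), H2-Oa (6.20) and Ciita (5.40) were lowest, and each overlapped its neighbour. H2-DMa and H2-Ob also overlapped slightly, with a lowest value of 13.5 in H2-DMa and a highest of 13.7 in H2-Ob. With the length of the longest coding transcript in place of all exons, H2-Aa (676) stood above H2-Ab1 (319) and H2-Eb1 (247), and Ciita (8.57) above H2-Oa (8.02).

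The invariant chain gene Cd74 had 1339 and 1093 CPM in control mice fed the control diet, 962 and 840 in control mice fed TJ-41, 1220 and 2292 in the COPD mice model fed the control diet, and 1464 and 1082 in the COPD mice model fed TJ-41. Both control groups lay at or below 1339, and replicate 2 of the COPD mice model fed the control diet stood above all others. H2-Aa, the alpha chain of the I-A molecule, had 783 and 628 CPM in control mice fed the control diet and 640 and 567 on the TJ-41 diet. The COPD mice model had 799 and 1089 CPM of it on the control diet and 924 and 670 on the TJ-41 diet. The COPD libraries were above the control libraries of the same diet in both diets. H2-Ab1, the I-A beta chain, had 409 and 331 CPM in control mice fed the control diet and 330 and 258 on the TJ-41 diet. The COPD mice model had 343 and 628 CPM of it on the control diet and 464 and 332 on the TJ-41 diet, so that replicate 1 on the control diet lay between the 2 control libraries.

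H2-Eb1, the beta chain of I-E, had 404 and 331 CPM in control mice fed the control diet, 292 and 266 on the TJ-41 diet, 398 and 737 in the COPD mice model fed the control diet and 514 and 357 on the TJ-41 diet. Its level was again highest in replicate 2 of the COPD mice model fed the control diet. C57BL/6 mice carry a defective gene for the I-E alpha chain. The corresponding gene H2-Ea-ps had 0 counts in 7 libraries and 2 counts in the other, while H2-Eb1 had at least 4918 reads in each.

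H2-DMa and H2-DMb1, the chains of the peptide exchange factor, were lowest and highest in the same libraries as Cd74. H2-DMa had 78.5 and 62.4 CPM in control mice fed the control diet, 59.4 and 46.4 on the TJ-41 diet, 82.8 and 110 in the COPD mice model fed the control diet and 79.1 and 63.1 on the TJ-41 diet. H2-DMb1 had 95.3 and 85.2 CPM in control mice fed the control diet, 83.7 and 70.0 on the TJ-41 diet, 114 and 153 in the COPD mice model fed the control diet and 112 and 89.3 on the TJ-41 diet. For both genes the COPD libraries lay above the control libraries of the same diet. The ratio of H2-DMa to H2-DMb1 stayed between 0.663 and 0.824 in the 8 libraries.

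H2-Oa and H2-Ob encode the alpha and beta chains of H2-DO, which is found mainly in B cells. H2-Oa was low, with 10.3 and 7.53 CPM in control mice fed the control diet, 8.50 and 6.97 on the TJ-41 diet, 10.1 and 9.54 in the COPD mice model fed the control diet and 10.4 and 6.54 on the TJ-41 diet. Its groups overlapped throughout. H2-Ob had 70.8 and 65.2 CPM in control mice fed the control diet, 64.8 and 63.4 on the TJ-41 diet, 73.6 and 37.7 in the COPD mice model fed the control diet and 47.9 and 42.7 on the TJ-41 diet. It was lower than in all control libraries in 3 of the 4 COPD libraries, and highest of all in the fourth, replicate 1 on the control diet.

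Ciita, the master regulator, had 52.7 and 48.9 CPM in control mice fed the control diet, 54.1 and 37.7 on the TJ-41 diet, 77.9 and 31.8 in the COPD mice model fed the control diet and 66.4 and 42.3 on the TJ-41 diet. Its highest and its lowest value came from the same group. Cd74, a known target of the transactivator, was lower in the library where Ciita was highest than in the library where Ciita was lowest, and the ratio of Cd74 to Ciita ran from 15.7 to 72.0 across the libraries.

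**Figure D1:**
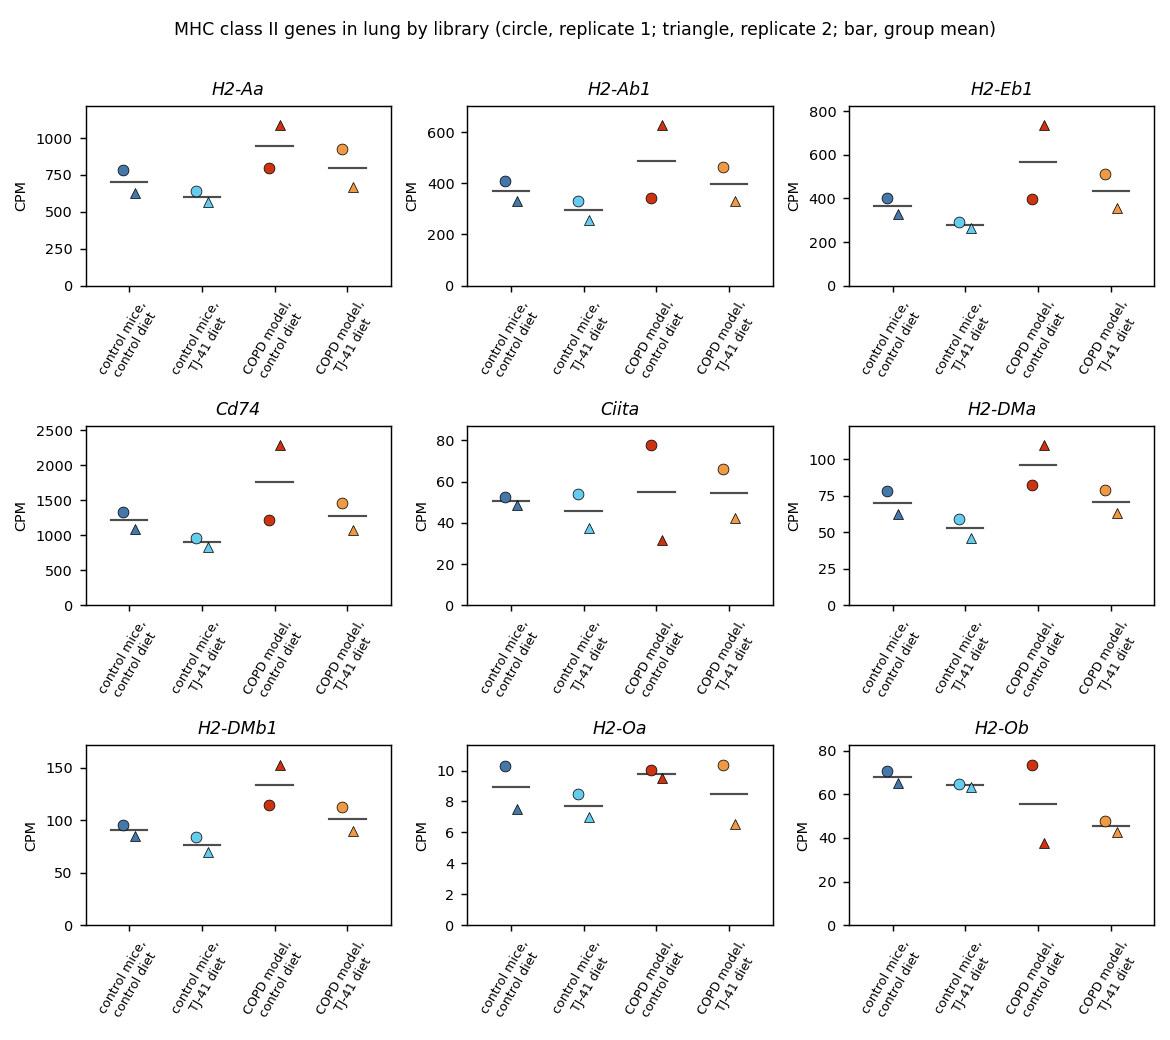
Level of each MHC class II gene in CPM (counts scaled to library size, linear axes from 0) in the 8 lung libraries, with circles for replicate 1, triangles for replicate 2 and a bar at the group mean of 2 libraries. The red triangle, replicate 2 of the COPD mice model fed the control diet, is the highest point for 6 genes and the lowest for Ciita and H2-Ob.

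The highest library exceeded the lowest by 1.59-fold for H2-Oa to 2.77-fold for H2-Eb1. The same 6 genes, H2-Aa, H2-Ab1, H2-Eb1, Cd74, H2-DMa and H2-DMb1, were highest in replicate 2 of the COPD mice model fed the control diet and lowest in replicate 2 of control mice fed TJ-41. Ciita and H2-Ob were both highest in replicate 1 and lowest in replicate 2 of the COPD mice model fed the control diet. Pearson's r with the mean of the standardized log2 levels of the 9 genes, over the 8 libraries, was 0.88 to 0.96 for H2-Aa, H2-Ab1, H2-Eb1, Cd74, H2-DMa, H2-DMb1 and H2-Oa, 0.26 for Ciita and -0.26 for H2-Ob. These are descriptions, since each gene is part of the mean and the libraries share the depth and length effects given for them.

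**Figure D2:**
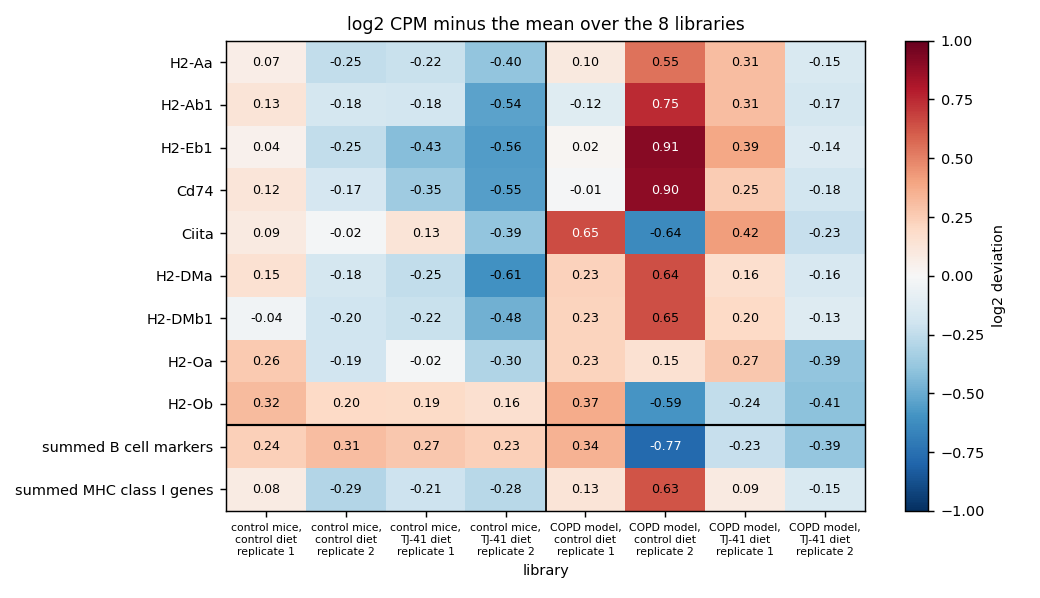
Deviation of each gene's log2 CPM from its mean over the 8 libraries (color and number), with the summed B cell markers and the summed MHC class I genes below the line and the control mice left of the vertical line. Replicate 2 of the COPD mice model fed the control diet has 0.91 for H2-Eb1 and 0.90 for Cd74 but -0.64 for Ciita and -0.59 for H2-Ob.

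The genes whose levels were most like the mean of the 9, by Pearson's r over the 8 libraries among 18048 candidates, were Rpl13a-ps1 (0.983), Mrgpre (0.973), H2-M3 (0.972), Gm8213 (0.972) and Psmb9 (0.955). H2-M3 is an MHC class I gene that presents formylated peptides, and Psmb9 encodes a subunit of the immunoproteasome. H2-M3 ranged from 15.9 to 27.8 CPM and Psmb9 from 26.7 to 63.5 CPM. Rpl13a-ps1, a ribosomal protein pseudogene, ranged from 7.51 to 21.8 CPM.

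The first comparison asked how the lungs of the COPD mice model differed from those of control mice. None of the 9 genes was called in it, with a call set at a log2 fold change beyond 1 and an adjusted p under 0.05 in the quasi-likelihood test of edgeR, adjusted by Benjamini and Hochberg over 20546 genes. Averaged over the diets, 0.443% of all genes tested were called. The fitted values of 8 genes were above 0 and that of H2-Ob was below 0, against 49.8% of all genes above 0. The median log2 fold change of the 9 genes was 0.41, against -0.002 for all genes tested. An unadjusted p under 0.05 was found for 5 of the 9 (H2-Aa, H2-Eb1, Cd74, H2-DMa and H2-DMb1), against 10.4% of all genes, and for 6 of the 9 with DESeq2. DESeq2, like edgeR, gave 0 of the 9 an adjusted p under 0.05, against 2.01% of all genes. The 9 genes are regulated together and are not independent of each other.

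H2-Eb1 had the largest fitted difference, 323 ± 60.2 CPM in control mice and 501 ± 171 CPM in the COPD mice model (SD, n = 4 libraries each). This was a 1.55-fold difference, or 0.63 on the log2 scale (95% interval 0.16 to 1.11, edgeR adjusted p = 0.315). H2-DMb1 had the smallest adjusted p, 0.253 in edgeR's quasi-likelihood test, with 83.5 ± 10.4 CPM in control mice, 117 ± 26.4 CPM in the COPD mice model (SD, n = 4 libraries each) and a log2 fold change of 0.48 (0.16 to 0.80). Neither gene passed the adjusted threshold, and the interval of H2-Eb1 reached past 1 on the log2 scale.

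The log2 fold changes of the other genes that present or load peptide were 0.41 for H2-Aa (standard error 0.17), 0.41 for H2-Ab1 (0.21), 0.51 for Cd74 (0.21) and 0.44 for H2-DMa (0.15), with adjusted p-values of 0.351 to 0.544 in the same edgeR test. Those of Ciita (0.18, standard error 0.27) and H2-Oa (0.13, standard error 0.20) were smaller than their errors. For H2-Ob the control mice had 66.05 ± 3.27 CPM and the COPD mice model 50.5 ± 15.9 CPM (SD, n = 4 libraries each), and the fitted value was -0.39 (standard error 0.19, edgeR adjusted p = 0.518). With all 4 COPD libraries set against all 4 control libraries, the ranges overlapped for each of the 9 genes. Of all genes tested, 3.35% lay wholly above and 3.43% wholly below.

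**Figure D3:**
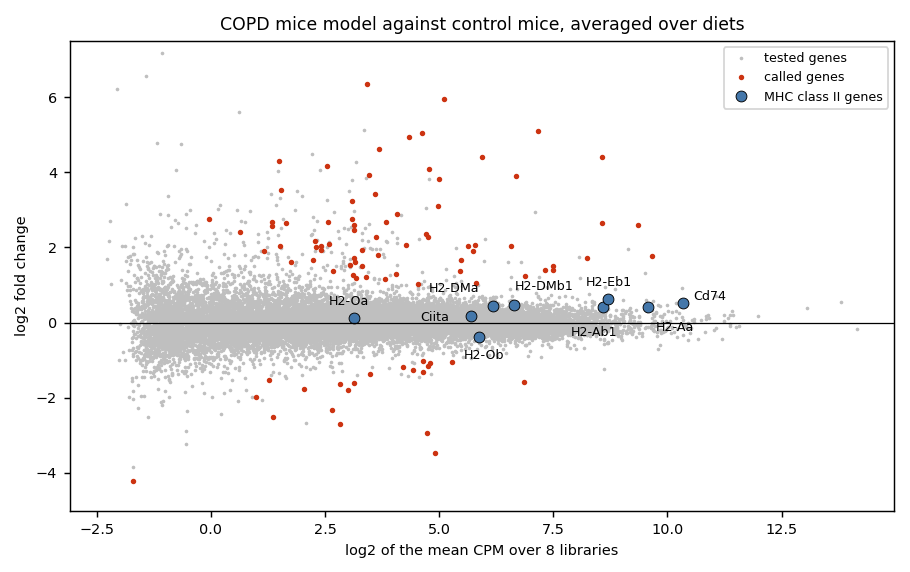
Log2 fold change of the COPD mice model against control mice, averaged over diets, against log2 of the mean CPM for the 20546 genes tested (gray), the 91 genes called (red) and the MHC class II genes (blue). The MHC class II genes lie close to the line at 0 beside the called genes, 8 above it and H2-Ob below.

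On each diet alone the result had the same form. On the control diet 8 of the 9 genes were higher in the COPD mice model, against 51% of all genes, with a median log2 fold change of 0.42. None was called, against 0.122% of all genes, and H2-DMb1 alone had an unadjusted p under 0.05 by edgeR, against 7.7% of all genes, while 2 had with DESeq2. All COPD libraries were above all control libraries for H2-Aa, H2-DMa and H2-DMb1, as for 13.6% of all genes. On the TJ-41 diet 8 of the 9 were higher, against 49.8% of all genes, with a median of 0.40. None was called, against 0.0779% of all genes, and none had an unadjusted p under 0.05 by edgeR, against 6.56%, while 1 had with DESeq2. There the libraries stood apart for 6 genes that were higher (H2-Aa, H2-Ab1, H2-Eb1, Cd74, H2-DMa and H2-DMb1), as for 28.5% of all genes, and for H2-Ob, which was lower, as for 27.9%. On the TJ-41 diet H2-Ob had 64.1 ± 0.980 CPM in control mice and 45.3 ± 3.68 CPM in the COPD mice model (SD, n = 2 libraries each). With only those 2 groups in edgeR's fit its log2 fold change was -0.50 with an adjusted p of 0.0396. In that fit 3.61% of all genes had an adjusted p under 0.05. With all 4 groups in the fit its adjusted p was 0.773 by edgeR's test.

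Leaving out single libraries moved these differences, given first for the libraries of the COPD mice model fed the control diet. Without replicate 1 of that group, 7 of the 9 genes had an adjusted p under 0.05 in the averaged comparison (edgeR's quasi-likelihood test), as did 20.1% of all genes, and none of the 7 was beyond a log2 fold change of 1. H2-Eb1 then had 0.82 (adjusted p = 0.00578 by edgeR), Cd74 0.71 (adjusted p = 0.0104) and H2-Ob -0.67 (adjusted p = 0.00268). Without replicate 2, the library that stood apart, 0 of the 9 had an adjusted p under 0.05, against 1.82% of all genes, and the median log2 fold change of the 9 was 0.30. In that fit Cd74 had 0.26, Ciita 0.44 and H2-Ob -0.19. Leaving out replicate 1 of the COPD mice model fed TJ-41 lowered the averaged median to 0.29, with 6 of the 9 genes above 0. On the control diet alone, leaving out replicate 1 gave 4 genes with an adjusted p under 0.05 by edgeR (H2-Eb1, Cd74, H2-DMb1 and H2-Ob), as for 13% of all genes. Leaving out replicate 2 there turned H2-Ab1 to -0.11 and H2-Ob to 0.12, and the median of the 9 was 0.18, against 0.64 without replicate 1 and 0.27 without replicate 2 of the control mice on that diet. On the TJ-41 diet the median was 0.18 with 6 of the 9 above 0 when replicate 1 of the COPD libraries was left out, and 0.27 with 7 of the 9 above 0 without replicate 2 of the control mice.

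The length and GC trend of replicate 2 was set beside the deviation of each gene from its mean in that library. Cd74 has 1679 and H2-Oa 1407 exon bases, against 9535 in Ciita. On the log2 scale the trend stood at 0.33 for Cd74, 0.34 for H2-Oa, -0.15 for H2-Ob, -0.052 for Ciita and -0.089 for H2-Aa. The deviations were 0.90 for Cd74, 0.15 for H2-Oa, -0.59 for H2-Ob, -0.64 for Ciita and 0.55 for H2-Aa. For H2-Ab1, H2-Eb1, H2-DMa and H2-DMb1 the trend stood at 0.30, 0.16, 0.19 and 0.24. Their deviations were 0.75, 0.91, 0.64 and 0.65. Trend and deviation differed in sign for H2-Aa alone and had the same sign for the other genes. The part of the trend in the values of single genes was not tested beyond the correction that follows. After a loess correction of each library for length and GC content, the median log2 fold change of the 9 genes in the averaged comparison was 0.35. H2-Eb1 then had 0.55, Cd74 0.35, H2-Oa 0.0073 and H2-Ob -0.35, with 8 of the 9 above 0 and 0 called.

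The second comparison asked what the TJ-41 diet changed. None of the 9 genes was called in control mice, where 0% of all genes were called by edgeR, or in the COPD mice model, where 0.00487% were. With DESeq2, too, 0 of the 9 had an adjusted p under 0.05, against 0.0487% of all genes for control mice and 0.0681% for the COPD mice model. Either tool gave 0 of the 9 an unadjusted p under 0.05 in both models, against 1.64% and 4.1% of all genes by edgeR. All 9 fitted values were below 0 in both, against 50.3% of all genes for control mice and 52.4% for the COPD mice model. The median log2 fold change of the 9 was -0.23 for control mice and -0.30 for the COPD mice model.

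In control mice H2-DMa had a log2 fold change of -0.41 (95% interval -0.91 to 0.081), Cd74 of -0.43 (-1.11 to 0.24) and H2-Eb1 of -0.40 (-1.06 to 0.27), with an adjusted p of 0.996 for all 9 genes in edgeR's quasi-likelihood test. Both TJ-41 libraries were below both control diet libraries for 6 genes (H2-Ab1, H2-Eb1, Cd74, H2-DMa, H2-DMb1 and H2-Ob), as for 19.1% of all genes. In the COPD mice model Cd74 had -0.46 (-1.14 to 0.21), H2-DMa -0.44 (-0.93 to 0.053) and H2-DMb1 -0.41 (-0.86 to 0.048), and adjusted p-values were 0.991 or above in edgeR's test. The libraries stood apart there for H2-DMa and H2-DMb1, as for 14.9% of all genes lower on TJ-41. The interval of Cd74 reached past -1 and past 0, so with 2 libraries a group the size of its difference was not set.

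Single libraries moved the TJ-41 values of the COPD mice model as well. Without replicate 1 on the control diet, Cd74 had -0.85 (edgeR adjusted p = 0.0476), and 6.99% of all genes had an adjusted p under 0.05. Without replicate 2 on the control diet it had 0.059, and H2-Ab1 (0.21) and H2-Eb1 (0.13) were also above 0. H2-DMa and H2-DMb1 stayed below 0 whichever library was left out, between -0.63 and -0.22 for H2-DMa and between -0.60 and -0.18 for H2-DMb1. The median of the 9 ranged from -0.60 to -0.14 in the COPD mice model and from -0.44 to -0.14 in control mice as each library was left out in turn. The difference between the TJ-41 effects of the COPD mice model and of control mice was tested directly, and 0 of the 9 were called by edgeR, as for 0% of all genes. Its fitted values were small, from -0.21 for H2-Ob to 0.13 for Ciita, with standard errors of 0.29 to 0.54. The comparisons share libraries with each other, so their values are not independent.

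Markers of heart muscle, a tissue that can be sampled with the lung, moved beside the TJ-41 values. The 6 markers summed to 491 and 640 CPM in the COPD mice model fed the control diet and to 291 and 239 CPM on the TJ-41 diet, against 335 to 505 CPM in control mice. Under TJ-41 in the COPD mice model all 6 were lower, with a median log2 fold change of -1.17 and an unadjusted p under 0.05 for 6 of the 6 by edgeR, and none was called. Against control mice their median was 0.53 on the control diet and -0.59 on the TJ-41 diet. The part of heart muscle in the class II values was not tested.

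**Figure D4:**
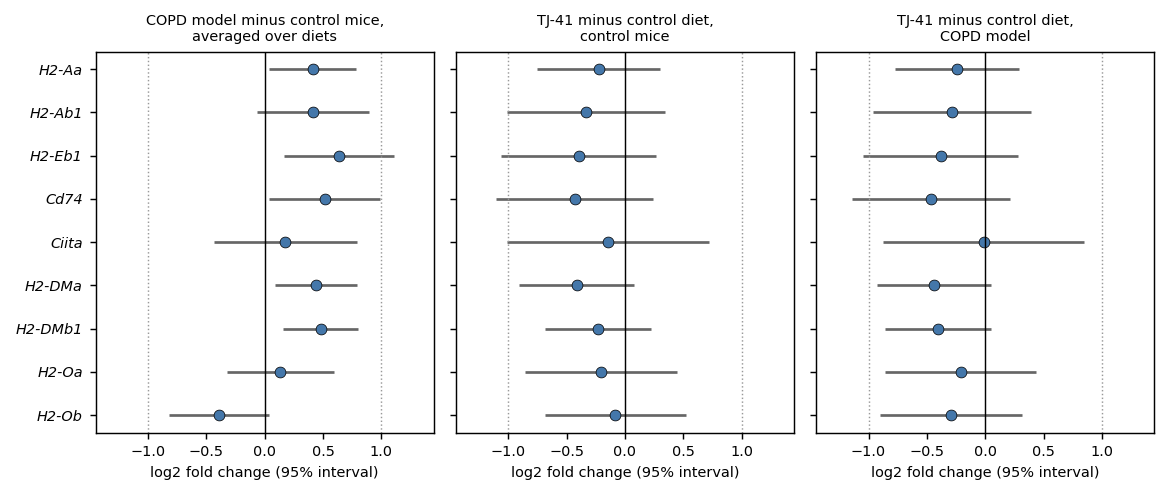
Log2 fold change of each MHC class II gene with its 95% interval from edgeR's quasi-likelihood fit, for the COPD mice model against control mice averaged over diets (left) and for TJ-41 against the control diet in the control mice (middle) and the COPD mice model (right). Dotted lines mark a log2 fold change of 1 in either direction. In the right and middle panels all 9 intervals include 0.

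Ratios between the genes cancel what moves them alike in a library, but not a length and GC trend that differs between them. In replicate 2 of the COPD mice model fed the control diet that trend stood at -0.15 for H2-Ob and 0.24 for H2-DMb1. The ratio of H2-Ob to H2-DMb1 was 0.744 to 0.906 in the 4 control libraries and 0.247 to 0.644 in the 4 COPD libraries, with no overlap. Its lowest value came from replicate 2 on the control diet, and the next lowest was 0.427. The ratio of H2-Eb1 to H2-Ab1 was 0.884 to 1.03 in control mice and 1.08 to 1.17 in the COPD mice model, also with no overlap. The ratio of Cd74 to H2-Ab1 overlapped between them and ran from 2.91 to 3.65 over all libraries, and that of H2-Oa to H2-DMa overlapped too. These 4 ratios were among 8 picked after the values were seen and were not tested.

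H2-Ob moved with the markers of B cells. The summed level of 10 B cell markers was 420 to 443 CPM in control mice and 209 to 453 CPM in the COPD mice model, and all 10 were detected in every library. In the COPD mice model the sums were 453 and 209 CPM on the control diet and 305 and 273 CPM on the TJ-41 diet, so 3 of its 4 libraries lay below all control libraries. All 10 had a fitted log2 fold change below 0 in the averaged comparison, with a median of -0.49, and 0 were called. With replicate 1 of the COPD libraries on the control diet left out the median was -0.87, where 8 of the 10 had an adjusted p under 0.05 by edgeR, as did 20.1% of all genes, and with replicate 2 left out it was -0.26, where 0 had. Cd79b, a chain of the B cell receptor complex, had a log2 fold change of -0.32 and the inhibitory receptor Cd22 -0.39. The libraries with the lowest H2-Ob were those with the lowest B cell markers, and the ratio of H2-Ob to their sum stayed between 0.147 and 0.181 in the 8 libraries. H2-DMb1 showed no such order, and its highest value came from the library with the lowest B cell sum. The part of B cells in the level of H2-Ob was not tested.

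**Figure D5:**
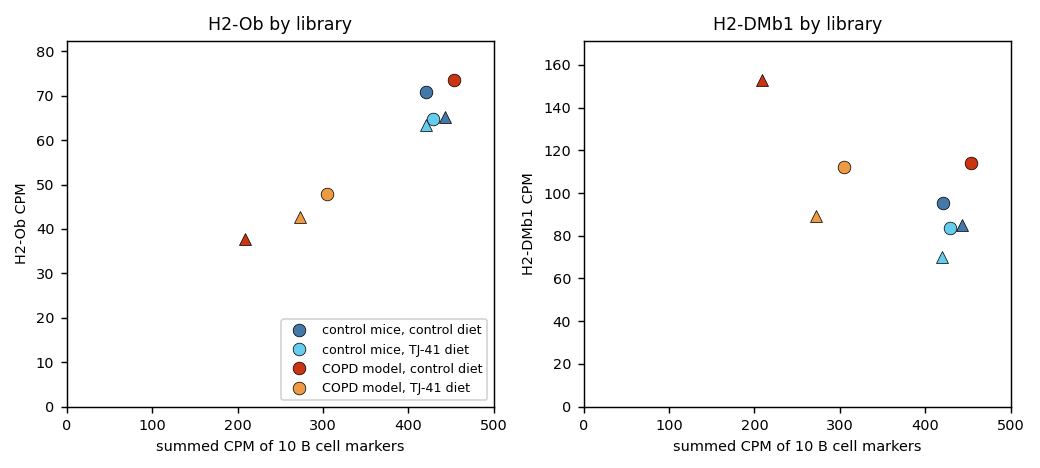
Level of H2-Ob (left) and H2-DMb1 (right) in CPM against the summed CPM of 10 B cell markers, 1 point per library (circle, replicate 1, triangle, replicate 2, colors as in the legend, linear axes from 0). H2-Ob is between 0.147 and 0.181 of the B cell sum in every library, while H2-DMb1 is highest where that sum is lowest.

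Markers of other cells that present antigen did not all follow the B cells. The summed level of 10 dendritic cell markers was 260 to 305 CPM in control mice and 302 to 329 CPM in the COPD mice model, with 6 of the 10 higher, a median log2 fold change of 0.28 and none at 0. Itgax, an integrin of dendritic cells and alveolar macrophages, had a log2 fold change of 0.33, Clec9a, a receptor of cross-presenting dendritic cells, -0.03, and Zbtb46, a factor of conventional dendritic cells, -0.10. The 9 markers tested for alveolar macrophages summed to 650 to 814 CPM in control mice and 1007 to 1664 CPM in the COPD mice model, with 6 of the 9 higher, and the chitinase-like gene Chil3 made up much of it (417 ± 48.8 against 1031 ± 322 CPM, SD, n = 4 libraries each, log2 fold change 1.31, edgeR adjusted p = 0.0586). Without Chil3 the sums overlapped, at 268 to 377 CPM in control mice and 277 to 434 CPM in the COPD mice model. Of the 9, 3 had all COPD libraries above all control libraries and 1 had them below, against 3.35% and 3.43% of all genes. Chosen after their values were seen, Siglecf, a surface lectin that marks alveolar macrophages, had a log2 fold change of -1.19 and stood apart below. Krt79 had -0.79. Fabp4 had 1.03 and Atp6v0d2 0.66, and both stood apart above, as did Chil3. The scavenger receptor Marco had 1.05 with a standard error of 0.62, and its libraries overlapped. Interstitial macrophage and monocyte markers had a median of 0.40 with 7 of 10 higher. Alveolar type II markers summed to 18497 to 25837 CPM in control mice and 22464 to 37582 CPM in the COPD mice model, with 7 of 8 higher and a median of 0.20. On the control diet alone 4 of 8 were higher, with a median of -0.01. The highest sum of these markers was in the same library as the highest Cd74, and Sftpc alone had 25920 of the 37582 CPM there. Markers of T cells, of which the CD4+ cells read class II, were higher for 8 of 8 with a median of 0.52. Without replicate 1 or replicate 2 of the COPD mice model fed the control diet, the medians were 0.19 and 0.20 for dendritic cells, 0.16 and 0.43 for alveolar macrophages, 0.52 and 0.20 for interstitial macrophages and monocytes and 0.52 and 0.48 for T cells. None of these genes was called with all libraries, and the part of each cell type in the class II levels was not tested.

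Among the known regulators of the class II genes, 8 of 15 were higher and 7 lower in the averaged comparison, with a median of 0.004, and 0 were called. Jak1, a kinase of interferon signaling, had a log2 fold change of -0.20, the interferon gamma receptor chain Ifngr1 0.03 and the interferon-induced factor Irf1 0.05. Of the genes that process antigen or give costimulation, 8 of 13 were higher and 0 were called, with a median of 0.03. Without replicate 1 or replicate 2 of the COPD mice model fed the control diet, this median was 0.14 and 0.04. That of the regulators was -0.06 and -0.02. The lysosomal proteases Ctsd, Ctsb and Ctss had 0.95 (edgeR adjusted p = 0.137), 0.36 and 0.55. Ctss encodes cathepsin S, which trims the invariant chain, and it had 238 ± 29.5 CPM in control mice and 350.1 ± 78.9 CPM in the COPD mice model (SD, n = 4 libraries each). Under TJ-41, the COPD mice model had a log2 fold change of 0.37 for Ctss and -0.46 for Cd74.

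The class I genes, whose products present peptides to CD8+ T cells, had values close to those of the class II chains. Of 12 class I pathway genes, 10 were higher in the averaged comparison, with a median log2 fold change of 0.31 and 0 called. With replicate 1 of the COPD libraries on the control diet left out the median was 0.42, and with replicate 2 left out it was 0.25. H2-K1 had 0.57 (edgeR adjusted p = 0.308), H2-D1 0.53 (adjusted p = 0.311) and the shared light chain B2m 0.30. On TJ-41, 10 of the 12 were lower in control mice (median -0.19) and 11 of the 12 in the COPD mice model (median -0.37), again with 0 called. In the COPD mice model this median was -0.54 without replicate 1 on the control diet and -0.09 without replicate 2. The sum of the 12 class I pathway genes was highest, at 6319 CPM, in replicate 2 of the COPD mice model fed the control diet. The class II chains were highest in that library too. Of the remaining class II genes, H2-DMb2 had 0.10 and H2-Eb2 -0.35 in the averaged comparison, with levels of 43.6 and 5.65 CPM.

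With all libraries, 1 gene of the lists was called, the plasma cell gene Jchain, which joins immunoglobulin units. It rose with a log2 fold change of 2.64 (edgeR adjusted p = 0.00969) in the averaged comparison, while 10 of 10 B cell markers and H2-Ob had values below 0. Of 8 plasma cell markers, 6 were higher. The markers of lymphoid follicles, thymocytes and heart muscle had medians of -0.06, 0.17 and -0.09 in this comparison, with 0 called. Without replicate 1 of the COPD mice model fed the control diet these medians were 0.06, -0.24 and -0.02. Without replicate 2 they were -0.22, 0.27 and -0.17.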

How the data were processed

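Total RNA of mouse lung was sequenced in 8 libraries, and each library was placed in its group by its deposited label. The authors deposited unnormalized read counts, whole numbers for each Ensembl gene. The submitters' processing notes name HISAT2, edgeR and the build mm10 (GRCm38), and the study's methods name CLC Genomics Workbench. The counting program, whether strand was used and how reads with several matches were treated are not given in the sources used here. Of the 52636 identifiers, 52489 were found in GENCODE M21, which gave symbols and coordinates. Promoter sequences came from RefSeq.

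The counts were tested in R 4.3.3 with edgeR 4.0.16. The function filterByExpr set the genes kept (minimum count 10, minimum total count 15), 20546 in all. TMM factors were applied, and 1 model of 4 group means with 4 residual degrees of freedom was fitted with the quasi-likelihood test. The common biological coefficient of variation was 0.208. A standard error is the log2 fold change divided by the root of its F statistic, and p-values were adjusted by Benjamini and Hochberg over all genes tested. Levels are CPM, with no pseudocount.

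The replicates of a group differed by 11.0 to 80.2 times the variance of counting, so no library was a copy of another. Same-numbered libraries did not pair across groups, with correlations of their deviations from -0.234 to 0.108.

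On simulated counts of the same design and 20546 genes, 175 of 200 genes changed by a log2 fold change of 2 were recovered in the comparison on the control diet, with 10 false calls. In the comparison averaged over diets 193 of 200 were recovered, with 7 false calls. Changes of the size fitted for the MHC class II genes were not simulated.

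The members and the gene lists were chosen with earlier results of these data known. All 9 members are named. From each list, genes that were called are named and otherwise up to 3 with the highest mean CPM (1 such gene is not reported here), and the genes most like the members are the 5 with the highest Pearson's r. The ratios, the promoter letters and some of the alveolar macrophage markers named were picked after the values were seen. Of the list symbols, 4 older or alternative symbols had no identifier and were left out. Alternatives were DESeq2 1.42.0, relative log expression factors, every gene with at least 1 count, a replicate block, only the 2 groups compared, the false discovery rate alone and leaving out each library in turn, with a loess correction (span 0.5) for exon length and GC content, the list medians without single libraries and the macrophage sum without Chil3 added after the data were seen.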

Additional observations from a re-analysis of the deposited data

How the results depend on the processing

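None of the 9 MHC class II genes was called in any comparison under any alternative. Counting error was largest for H2-Oa, with 128 to 199 reads a library. Of 792 member values under alternatives, 737 kept their direction and their side of the threshold. With no library left out, 7 turned. Under the replicate block Ciita turned to -0.011 for the COPD mice model against control mice fed the control diet and to 0.052 for TJ-41 in the COPD mice model. Under the length and GC correction H2-Oa turned to -0.11 for the same comparison on TJ-41, and the difference between the TJ-41 effects turned to 0.052 for H2-Aa, -0.11 for H2-Ab1, -0.00904 for H2-Eb1 and -0.051 for Ciita. The cause was not tested. The block changed no call of a member.

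With 1 library left out, 48 of 432 values turned, 29 of them in the difference between the TJ-41 effects. For the COPD mice model against control mice, both fed the control diet, the ranges were -0.11 to 0.76 for H2-Ab1, -0.68 to 0.62 for Ciita, -0.075 to 0.38 for H2-Oa and -0.85 to 0.12 for H2-Ob. On the TJ-41 diet they were -0.11 to 0.54 for Ciita and -0.24 to 0.43 for H2-Oa, and averaged over diets -0.21 to 0.44 for Ciita and -0.054 to 0.28 for H2-Oa. For TJ-41 in control mice they were -0.44 to 0.096 for Ciita and -0.42 to 0.038 for H2-Oa. For TJ-41 in the COPD mice model they were -0.66 to 0.21 for H2-Ab1, -0.76 to 0.13 for H2-Eb1, -0.85 to 0.059 for Cd74, -0.52 to 0.77 for Ciita, -0.58 to 0.087 for H2-Oa and -0.70 to 0.27 for H2-Ob. For the difference between the TJ-41 effects they were -0.26 to 0.23 for H2-Aa, -0.32 to 0.55 for H2-Ab1, -0.35 to 0.53 for H2-Eb1, -0.40 to 0.50 for Cd74, -0.37 to 0.93 for Ciita, -0.21 to 0.20 for H2-DMa, -0.36 to 0.058 for H2-DMb1, -0.37 to 0.30 for H2-Oa and -0.60 to 0.36 for H2-Ob.

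The number of all genes called moved far more. For the COPD mice model against control mice, both fed the control diet, it was 25, and 147 with every gene of at least 1 count, 174 with DESeq2 and 3 to 1343 with 1 library left out. On the TJ-41 diet it was 16, and 89, 125 and 2 to 168 in the same order, 248 with only the 2 groups compared and 28 with the length and GC correction. Averaged over diets it was 91, and 278, 249 and 15 to 873. For TJ-41 in control mice it was 0, and 5 with only the 2 groups compared and 10 with DESeq2. For TJ-41 in the COPD mice model it was 1, and 2 with every gene of at least 1 count, 0 with the replicate block and with only the 2 groups compared, 14 with DESeq2 and 0 to 728 with 1 library left out. For the difference between the TJ-41 effects it was 0, and 6 with every gene of at least 1 count, 17 with DESeq2 and 0 to 14 with 1 library left out.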
